A study of Homo sapiens with 8 samples.

Results

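RBBP4 is a histone-binding protein. The data described here are 5956 genomic regions of RBBP4 occupancy that lay at the end of a single protein-coding gene in the small cell lung cancer line NCI-H69. They were drawn from the 35154 regions that the authors listed for RBBP4, out of 55650 listed for RBBP4 and P300 together. A region was taken when it lay within 3000 bp of an end of exactly 1 protein-coding gene of the RefSeq annotation of GRCh38, whichever direction it changed in. A segment of chromosome 8, from 113000001 to 128000000, was left out. The 5956 regions lay at 4808 genes. This choice used no measured value, although the list itself holds regions that the authors had selected.

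The cells received small interfering RNA against CSNK2B, which encodes the regulatory subunit of casein kinase 2, or a non-targeting RNA as control. Chromatin was collected 48 h later and sequenced after immunoprecipitation with an antibody to RBBP4 or to P300, or as input, in 8 libraries. RBBP4 had 1 immunoprecipitated library per arm, so no difference between the arms could be tested, and every comparison below is between those 2 libraries. Both arms were the same line, and RBBP4 occupancy does not measure the knockdown itself. The file marked its columns only by the letters S and C, read here as the CSNK2B knockdown and the control.

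Values are read densities per kilobase of region, scaled to a read total for each library (RPKM), and whole reads were recovered from them. The reads in all regions tested by the authors, inferred from the RPKM scale, came to 1207945 in the knockdown library and 833181 in the control library. A region is called higher when log2 of its knockdown over its control RPKM, each with 1 added, was at least 1, and lower when it was -1 or less. Folds are ratios of reads scaled to those totals, each with a 95% exact binomial interval, which reflects the counting of reads and no other error. Where a library held 0 reads, a floor of 3 reads in that library gives a fold written as at least a value, and the limit of the exact interval, which is nearer to 1, stands beside it. Scaled to the whole libraries instead, every knockdown over control ratio would be 1.49 times larger, so folds given as higher would grow and folds given as lower would shrink by that factor, and the choice between these scalings was not tested.

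RBBP4, also called RbAp48, is a WD40-repeat protein that holds histone H4 and the tail of histone H3. It is a shared subunit of the NuRD and SIN3 deacetylase complexes, of Polycomb repressive complex PRC2, of the chromatin assembly factor CAF-1, of the remodeller NURF and of the MuvB core that represses cell cycle genes with the DREAM complex. Several of these complexes act at promoters, among other places, and many promoters are CpG islands, stretches rich in unmethylated CpG. Casein kinase 2 is a constitutively active serine/threonine kinase of catalytic alpha subunits and regulatory beta subunits.

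The promoters below show sequence at or near regions of both directions. Each is the 300-base RefSeq window of GRCh38.p14 from 250 bases before to 50 bases after a gene start, written 5′ to 3′ on the gene's strand. In the first 2, at the higher regions of PPP2CA and ZBTB7B, CpG dinucleotides are in capitals. The PPP2CA region covered the whole of its CpG-dense window. The ZBTB7B region overlapped only part of its CpG-poor window. The start of that window lay 169 bp outside the region, which covered the outer start of the gene instead. PPP2CA encodes the catalytic subunit of protein phosphatase 2A, and its window held 33 CpG. ZBTB7B encodes the zinc finger repressor ThPOK, and its window held 6.
PPP2CA, chr5:134226024-134226323, minus strand: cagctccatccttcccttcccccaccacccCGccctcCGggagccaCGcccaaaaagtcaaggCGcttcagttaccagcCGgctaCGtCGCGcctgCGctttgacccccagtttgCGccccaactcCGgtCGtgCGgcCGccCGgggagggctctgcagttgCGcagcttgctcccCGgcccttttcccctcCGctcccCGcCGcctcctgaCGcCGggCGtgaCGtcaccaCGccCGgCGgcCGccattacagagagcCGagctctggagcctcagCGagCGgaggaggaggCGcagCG
ZBTB7B, chr1:155002399-155002698, plus strand: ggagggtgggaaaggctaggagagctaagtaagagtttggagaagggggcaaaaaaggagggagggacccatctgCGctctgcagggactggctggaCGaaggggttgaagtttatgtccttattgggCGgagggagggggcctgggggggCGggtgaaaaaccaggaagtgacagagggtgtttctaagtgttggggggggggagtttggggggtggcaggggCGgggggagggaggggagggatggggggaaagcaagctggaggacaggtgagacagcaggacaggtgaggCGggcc
The next 2 were chosen after their values were seen, and bases of a named word are in capitals. PDE4A, a phosphodiesterase gene, holds a cyclic AMP response element (TGACGTCA). CNPY4 holds the core of an NRF1 site (GCATGCGC). Its capitals mark the word as read on the other strand, and the word also reads on the printed strand, overlapping them.
PDE4A, chr19:10416523-10416822, plus strand: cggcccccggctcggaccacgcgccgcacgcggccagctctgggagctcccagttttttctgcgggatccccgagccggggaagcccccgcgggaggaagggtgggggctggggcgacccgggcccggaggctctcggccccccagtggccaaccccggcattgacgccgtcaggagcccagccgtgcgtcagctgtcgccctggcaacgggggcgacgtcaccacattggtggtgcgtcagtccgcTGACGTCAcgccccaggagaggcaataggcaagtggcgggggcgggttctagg
CNPY4, chr7:100119384-100119683, plus strand: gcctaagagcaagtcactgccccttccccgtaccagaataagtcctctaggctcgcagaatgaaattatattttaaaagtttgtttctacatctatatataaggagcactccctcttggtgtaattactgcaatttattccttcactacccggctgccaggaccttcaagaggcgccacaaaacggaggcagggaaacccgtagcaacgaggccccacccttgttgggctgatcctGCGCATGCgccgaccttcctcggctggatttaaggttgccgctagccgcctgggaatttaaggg
The last 3 are of lower genes, again with CpG in capitals. They are TSHB, for the beta subunit of thyrotropin, whose window is at a start inside the gene, 782 bp from a region near the far end, and MMRN1 and OR6C74, for the platelet protein multimerin 1 and an olfactory receptor, whose regions overlapped the window. MMRN1 and OR6C74 were chosen after their values were seen. They held 3, 2 and 3 CpG.
TSHB, chr1:115033696-115033995, plus strand: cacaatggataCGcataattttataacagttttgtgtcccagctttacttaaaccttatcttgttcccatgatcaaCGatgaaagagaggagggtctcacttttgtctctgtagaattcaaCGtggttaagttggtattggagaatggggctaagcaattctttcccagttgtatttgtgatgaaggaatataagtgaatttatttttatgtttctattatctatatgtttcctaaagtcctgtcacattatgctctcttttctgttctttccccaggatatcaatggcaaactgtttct
MMRN1, chr4:89879261-89879560, plus strand: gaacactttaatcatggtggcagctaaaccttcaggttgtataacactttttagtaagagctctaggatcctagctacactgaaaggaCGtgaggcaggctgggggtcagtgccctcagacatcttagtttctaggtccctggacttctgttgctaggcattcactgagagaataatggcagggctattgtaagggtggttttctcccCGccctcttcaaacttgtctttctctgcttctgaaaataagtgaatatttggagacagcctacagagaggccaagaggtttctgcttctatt
OR6C74, chr12:55244359-55244658, plus strand: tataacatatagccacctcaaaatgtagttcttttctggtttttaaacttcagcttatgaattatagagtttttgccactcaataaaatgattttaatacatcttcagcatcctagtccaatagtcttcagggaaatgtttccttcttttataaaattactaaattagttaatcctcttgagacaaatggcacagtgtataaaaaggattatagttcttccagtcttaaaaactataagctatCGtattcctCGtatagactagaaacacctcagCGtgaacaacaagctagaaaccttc

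RBBP4 density at single gene ends was mostly higher after CSNK2B knockdown. Of the 5956 regions, 5221 were higher, or 87.7% (86.8 to 88.5), 476 were lower, or 7.99%, and 259 lay in between. Over all 35154 listed regions 64.9% were higher and 31.2% were lower. The rest of the listed regions, without those at single gene ends but with the chromosome 8 segment, were higher in 60.3%. The median RPKM at single gene ends was 31.3 in the knockdown library and 8.35 in the control library, and the median log2 ratio was 1.85 with quartiles of 1.38 and 2.42. Regions were listed by p-value and then called by their ratio, which limits how far medians within a call can differ. Higher regions had a median log2 ratio of 1.97 at single gene ends and 1.89 elsewhere, and lower regions had -2.79 and -2.76.

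Regions entered the list through a peak called in either arm, and that arm fixes the direction. Going by the sign of the deposited log2 fold change alone, 5480 regions at single gene ends were higher and 476 lower. All 5480 bore the name of a knockdown peak, and all 476 bore the name of a control peak. The list held only regions with a p-value under 0.05 in the authors' deposited table, so a gene without a region here was not shown to be unchanged. Counts were low. The median region held 19 reads in the knockdown library and 4 in the control library over a median width of 492 bp. No read was seen in the control library in 333 of the higher regions, and none in the knockdown library in 39 of the lower regions. Reads over both libraries ran from 7 to 530 in higher regions and from 6 to 38 in lower regions, and regions that lay in between reached 195 reads. The 77 regions with at least 100 reads over both libraries were all higher by sign, and 74 of them by the call.

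**Figure D1:**
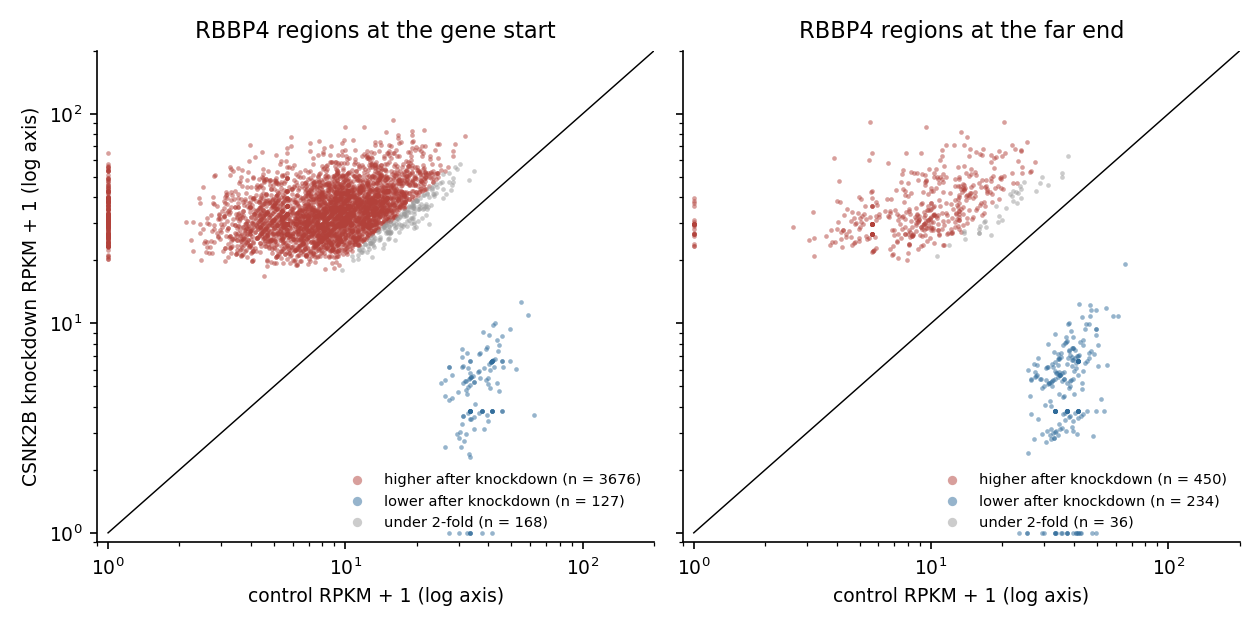
RBBP4 density of regions at single gene ends where the strand of the gene was known, at the gene start (left) and at the far end (right). Each point is 1 region, with the CSNK2B knockdown RPKM plus 1 on the vertical axis and the control RPKM plus 1 on the horizontal axis, both logarithmic, and points at the edge of an axis had 0 reads in that library. At the start 3676 regions were higher and 127 lower, and at the far end 450 were higher and 234 lower.

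Depth moved with direction outside single gene ends more than at them. With up to 12 reads over both libraries, 74.4% of regions at single gene ends were higher, against 38.2% of the other listed regions. At 13 to 19 reads the shares were 87.7% and 48.4%, and at 20 to 29 reads they were 90.8% and 70.0%. From 30 to 49 reads they were 90.3% and 84.2%, and from 50 to 99 reads 91.6% and 92.9%. The gap between single gene ends and other places was thus smaller from 30 reads on than below. At 100 or more reads the shares were 96.1% of 77 and 90.7% of 841. The other listed regions include the 198 of the chromosome 8 segment, which had a median of 226 reads and were higher in 53.5%. Their part in the shares at high depth was not tested. By width, the shares were 86.1% and 57.1% below 300 bp. Among regions of 300 to 399 bp, 86.1% were higher at single gene ends and 49.5% elsewhere, and among those of 1000 to 1999 bp the shares were 93.1% and 91.1%.

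The higher regions gathered at gene starts, and the lower ones did not. The strand needed to tell a start from a far end was in the reference table for all but 1032 of the 5956 regions, and 233 regions had both ends of a short gene in reach. Of 3971 regions at a start, 3676 were higher, or 92.6% (91.7 to 93.4), and 127 were lower. Of 720 regions at a far end, 450 were higher, or 62.5% (58.8 to 66.0), and 234 were lower, which is close to the 64.9% and 31.2% of all listed regions. Read the other way, 89.1% of the higher regions with 1 known end lay at the start (88.1 to 90.0), against 35.2% of the lower regions (30.3 to 40.4). Regions share the same pair of libraries and are not replicates, so these intervals describe counting only.

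Within the reach of a start the position differed as well. The centre of a higher region lay at a median position of -10 bp from the start, negative being before it, with quartiles of -259 and 442 bp, and 61.8% of the centres lay within 500 bp. Lower regions at starts showed no such peak, with quartiles of -2173 and 1964 bp, and 7.09% within 500 bp. The start itself was covered by 1713 of the higher regions (46.6%) and by 5 of the lower ones (3.94%). At far ends 13.6% of higher centres and 15.0% of lower centres lay within 500 bp, and neither direction gathered there.

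**Figure D2:**
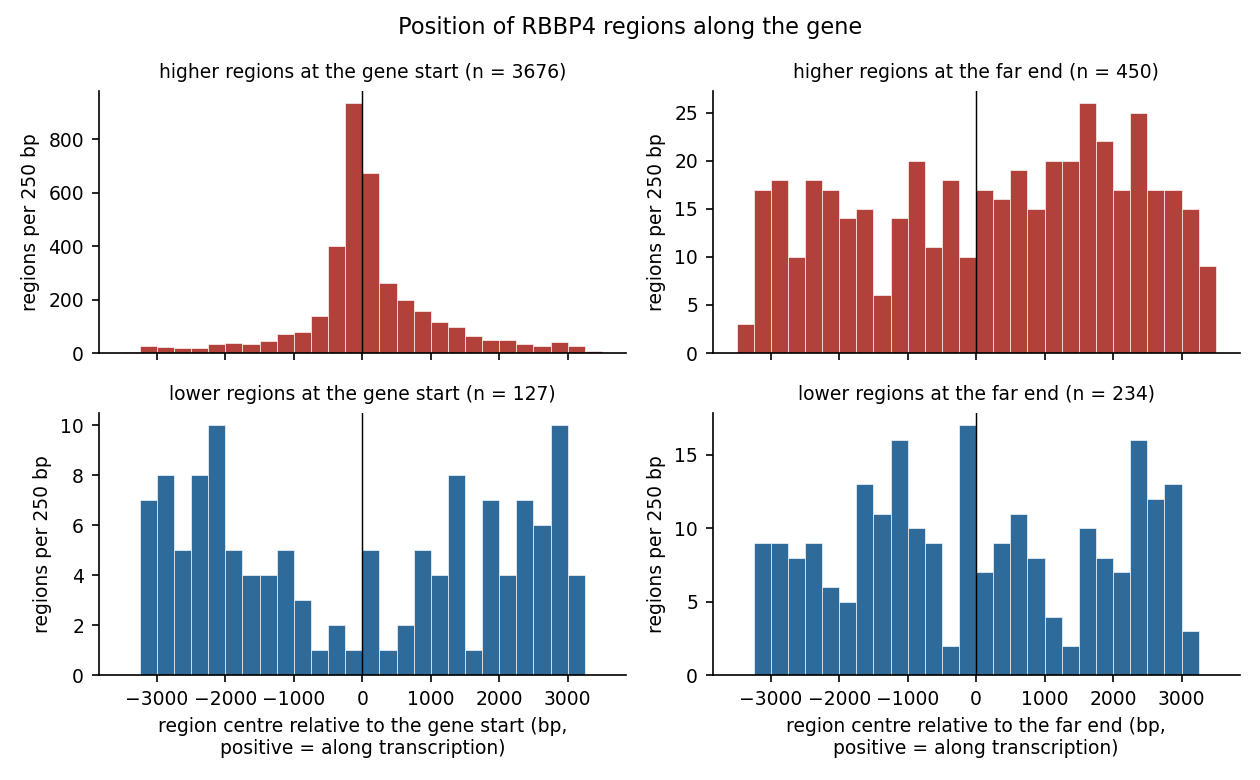
Number of region centres per 250 bp along the gene, for higher regions (top) and lower regions (bottom) at gene starts (left) and far ends (right), with each panel on its own vertical scale. Positive positions run in the direction of transcription from the end marked by the line at 0. The 3676 higher regions at starts pile up at the start, with 61.8% within 500 bp, and the other 3 panels are broad.

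The share of higher regions fell with distance from the start. It was 95.6% of 1791 regions that covered the start, 97.2% of 956 regions up to 500 bp away, 92.9% from 501 to 1000 bp, 82.6% from 1001 to 2000 bp and 75.0% from 2001 to 3000 bp. Along far ends it ran between 55.6% and 67.6% with no order. Around the limit of 3000 bp, 69.4% of the 350 regions with a gap of 2501 to 3000 bp were higher, beside 71.6% of 296 regions from 3001 to 3500 bp that fell outside. Compared with other places, regions near ends of several genes at once were higher in 93.7% of 1872, those inside genes away from ends in 63.1% of 12255, and those between genes in 53.9% of 14873. Higher regions also lay over starts of genes that do not code for protein. A RefSeq start window of such a gene was overlapped by 669 of 5221 higher regions, or 12.8% (11.9 to 13.8), and by 0 of 476 lower regions, which allows a share of up to 0.630% taken as 3 regions, with an exact upper limit of 0.772%. Many of those starts lie close to a coding one, and the 2 were not told apart.

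**Figure D3:**
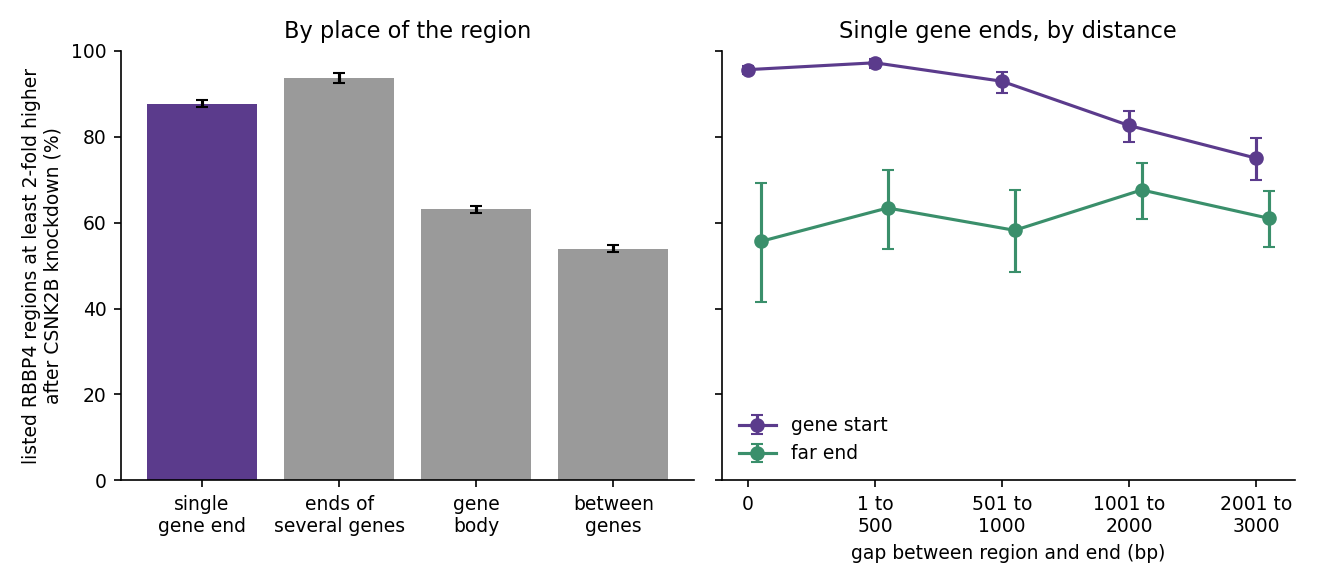
Percent of listed RBBP4 regions at least 2-fold higher after CSNK2B knockdown, by the place of the region (left) and, for single gene ends, by the gap between region and end (right). Bars and points are shares with exact 95% binomial intervals. At starts the share goes from 95.6% over the start to 75.0% at 2001 to 3000 bp, and along far ends it stays between 55.6% and 67.6%.

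The region with the most reads lay at TNRC18, which encodes a chromatin protein with a bromo-adjacent homology domain. It spanned 7593 bp at chr7:5421593-5429185 and held 439 reads in the knockdown library and 91 in the control library, a 3.33-fold higher density (2.65 to 4.22). It was also the widest of all. At SKIDA1 a region of 4305 bp held 269 knockdown and 74 control reads, 2.51-fold higher (1.93 to 3.29). ZBTB7B carried a pair of deep regions next to each other, with 243 and 201 knockdown reads against 29 and 34 control reads. They were 5.78-fold (3.92 to 8.81) and 4.08-fold higher (2.82 to 6.05), so the 2 regions of 1 gene moved alike. PDE4A, whose window is printed above, held 200 and 35 reads at its start, 3.94-fold higher (2.74 to 5.82). At HSP90AA1, the inducible HSP90 chaperone gene, the deep region was at the far end, with 199 knockdown and 35 control reads, 3.92-fold higher (2.73 to 5.79). All of these intervals lay well above 1.

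Other regions had fewer reads and a wider contrast. JUN, the AP-1 transcription factor gene, held 92 knockdown reads and 4 control reads, a 15.9-fold higher density (5.99 to 59.5). That region covered the far end of this short gene and lay 2701 bp from its start. THAP12 held 145 and 9, 11.1-fold higher (5.69 to 24.8). TACC1, for a centrosomal coiled-coil protein, held 47 and 1, which gives 32.4-fold with a counting interval of 5.54 to 1307. PPP2CA held 40 and 0 reads, at least 9.20-fold higher, with 7.14 as the lower limit of the exact interval. ZMYM6 held 32 and 0, at least 7.36-fold higher (exact lower limit 5.65). These regions were chosen for intervals far from 1, so their folds are a description.

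Few reads lay in the lower regions, 2 at the median in the knockdown library against 12 in the control library. The deepest lay near CDC37L1, with 8 knockdown and 30 control reads over 919 bp, a 5.44-fold lower density (2.44 to 13.7). ARFGEF1 and THNSL2 each held 8 and 24 reads, 4.35-fold lower (1.89 to 11.2). ASXL2, a Polycomb-related chromatin gene, held 7 and 23 reads near its far end, 4.76-fold lower (1.98 to 13.1). SUGCT held 1 and 17 reads, 24.6-fold lower with an interval of 3.86 to 1030. TSHB held 0 and 13 reads, at least 6.28-fold lower (exact limit 4.42). At CXCR5, a chemokine receptor of B cells, and at CREB3L2, ANKRD62 and ATG4C the counts were 0 and 12, at least 5.80-fold lower (exact limit 4.03). By the outer ends of the genes, the region of CXCR5 lay 1091 bp from its start and those of TSHB, CREB3L2, ANKRD62 and ATG4C lay nearest to the far end.

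Promoters of genes with a higher region were richer in CpG than promoters in general, and those of genes with a lower region were poorer. The start window nearest the region was taken for genes with a region, and the one nearest the outer start for all genes. The set of all genes also keeps those with ends close to other genes. What these choices add to the contrasts was not tested. There were 3203 genes with a higher region within 3000 bp of a start. Their RefSeq windows had a median GC content of 66.3% and a median CpG observed over expected of 0.863. For 129 genes with a lower region there the medians were 54.7% and 0.336, and for all 15841 protein-coding genes with a window 62.7% and 0.761. An observed over expected value above 0.6 was found in 88.2%, 38.8% and 65.5% of these windows, in the same order. Where the region itself overlapped the window, 2396 genes with a higher region had a median of 0.874, and 9 genes with a lower region had 0.164. Turned round, 11420 genes whose start lay apart from other genes were taken, each with the window nearest its outer start. Among them the share with a higher region at the start climbed with CpG content. It was 5.15% of genes below 0.2, 9.31% from 0.2 to 0.4, 20.6% from 0.4 to 0.6, 32.6% from 0.6 to 0.8, 41.2% from 0.8 to 1.0 and 46.0% above, with 28.2% over all of them. Lower regions went the other way at the poor end only, with 2.70% of genes below 0.2 and 0.519% to 0.895% above 0.6.

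**Figure D4:**
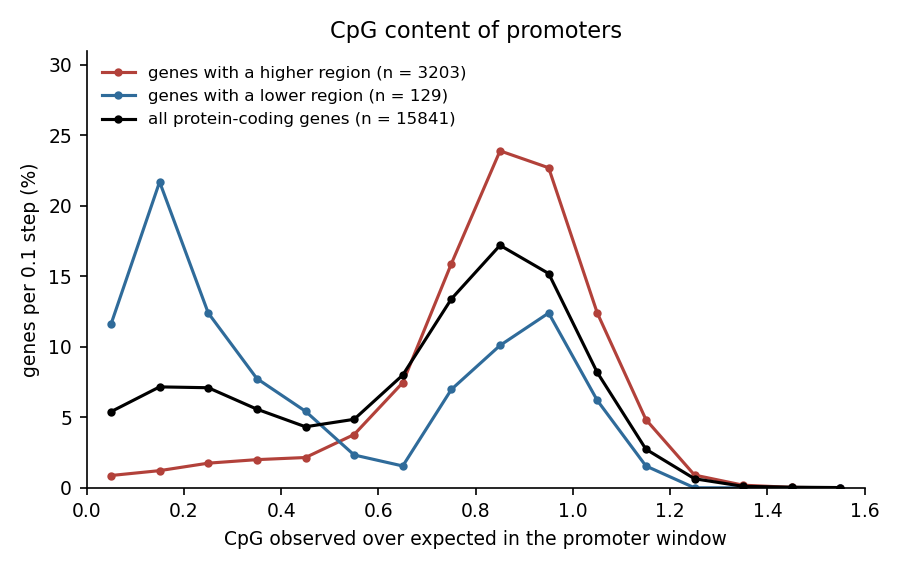
CpG observed over expected in the 300-base promoter window, as the percent of genes per step of 0.1, for genes with a higher region within 3000 bp of the start, genes with a lower region there, and all protein-coding genes. Windows are those nearest the region for genes with a region, and those nearest the outer start for all genes. The medians are 0.863, 0.336 and 0.761, and the curve of lower genes has its main peak below 0.2.

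Short sequence words followed that composition. A set of 11 motifs was searched on both strands of the windows, and a match is a description of letters, not a bound site. The GC box (GGGCGG) was in 71.8% of windows of genes with a higher region, 39.5% of those with a lower region and 58.3% of all. The TATA box (TATAAA) was in 6.06%, 25.6% and 9.75%. The CCAAT box (CCAAT) did not separate them, with 35.4%, 36.4% and 36.4%, nor did the antioxidant response element core (TGACNNNGC), with 14.4%, 14.0% and 14.4%. The E-box (CACGTG) was in 10.3%, 4.65% and 8.83%, and the AP-1 site (TGACTCA or TGAGTCA) in 2.65%, 6.20% and 3.62%. Among CpG-rich windows alone, over 0.6 observed over expected, 2199 windows under a higher region were set beside all 10379. Here and in the shares above, windows of genes with a region and of all genes were picked by the different rules given for CpG. The GC box was then in 74.9% (73.0 to 76.7) and 77.3% (76.5 to 78.1), and the TATA box in 5.09% and 4.99%, so neither was more frequent under higher regions. The NRF1 core (GCATGCGC) was in 8.96% (7.80 to 10.2) and 6.08% (5.63 to 6.56). The cyclic AMP response element was in 4.68% (3.84 to 5.65) and 3.56% (3.22 to 3.94), intervals that overlap, as do those of the ETS (CCGGAAGT), E2F (TTTCGCGC or TTTGGCGC) and YY1 (AAGATGGCG) words.

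Of 17514 protein-coding genes with at least 1 end apart from other genes, 4260 had a higher region, or 24.3%, and 460 a lower one, or 2.63%. Gene lists are set against that below, by how many of their genes with an end apart had a higher region. Genes with a region were somewhat longer, with medians of 35.3 kb for higher regions at starts and 35.0 kb for lower regions, against 27.3 kb over all such genes. CpG content moved with the lists too, and its part in their counts was not tested. The lists of other cell types had few CpG-rich windows, and those of cell cycle, ribosomal and chromatin genes many.

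Genes of the complexes that contain RBBP4 had higher regions in 23 of 39, or 59.0% (42.1 to 74.4), and no lower one, with a median log2 ratio of 2.03 over 32 regions beside 1.85 over all single-end regions. Of the 41 genes in this list with a promoter window, 87.8% had a CpG-rich one. Each of the complexes named above except CAF-1 was represented. EZH2, the methyltransferase of PRC2, held 31 knockdown and 3 control reads near its start, 7.13-fold higher (2.22 to 36.4). MTF2, a PRC2 accessory protein that binds CpG islands, held 30 and 7, 2.96-fold higher (1.27 to 7.97). SAP30, a SIN3 subunit, held 40 and 7 reads, 3.94-fold higher (1.75 to 10.4). Other genes with a higher region were JARID2, EED and SUZ12 of PRC2, CHD4, MBD2, MBD3 and GATAD2B of NuRD, SIN3A, SIN3B and SUDS3 of SIN3, BPTF of NURF, LIN9 and LIN54 of MuvB, and HDAC1. RBBP4 itself had no single-end region in the list.

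Genes that write or erase histone marks had higher regions in 22 of 41, or 53.7% (37.4 to 69.3), and no lower one. KMT2D, a histone H3 lysine 4 methyltransferase, held 49 knockdown and 8 control reads, 4.22-fold higher (1.98 to 10.3). SETDB1, a histone H3 lysine 9 methyltransferase, held 35 and 4 reads, 6.04-fold higher (2.16 to 23.4). SUV39H2, of the same activity, held 41 and 11 reads, 2.57-fold higher (1.30 to 5.55). EP300, the gene of P300 itself, held 30 and 6 reads 451 bp from its start, 3.45-fold higher (1.41 to 10.1). Casein kinase 2 genes had none, with 0 of 3 higher, which is too few for a share. The intronless CSNK2A3 had a lower region, with 1 knockdown and 8 control reads.

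Cell cycle genes and E2F targets had higher regions in 29 of 49, or 59.2% (44.2 to 73.0), and a lower one in 1. CDKN2C, which encodes the CDK4 and CDK6 inhibitor p18, held 122 knockdown and 35 control reads near its far end, a log2 ratio of 1.21. RRM2, the regulatory subunit of ribonucleotide reductase, held 93 and 22 at its start, 2.92-fold higher (1.82 to 4.88). BIRC5, which encodes survivin, held 57 and 14, 2.81-fold higher (1.54 to 5.46). KIF11, the mitotic kinesin Eg5, had higher regions and also the 1 lower region, with 1 and 8 reads near its far end. The replication and mitosis genes MCM3, MCM5, CDC6, CDT1, CDK1, AURKB, TTK and BUB1 were among the higher ones.

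DNA repair genes had higher regions in 21 of 46, or 45.7% (30.9 to 61.0), and lower ones in 4, or 8.70%, beside 2.63% over all genes. FANCC of the Fanconi anaemia core held 105 knockdown and 25 control reads at its start, 2.90-fold higher (1.86 to 4.68). RAD51B held 50 and 8, 4.31-fold higher (2.03 to 10.5), and XRCC2, also of homologous recombination, held 49 and 7, 4.83-fold higher (2.18 to 12.6). The 4 with a lower region were WRN, the Werner helicase gene, RPA2, a subunit of the single-strand binding protein RPA, the deubiquitinase gene USP1, and FANCD2. WRN held 2 and 13 reads, 9.42-fold lower (2.13 to 86.0). RPA2 held 3 and 13 reads in that region, 6.28-fold lower (1.73 to 34.4), but 11 and 2 in a higher one.

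The NRF2 pathway, which drives antioxidant and glutathione genes, and the cystine and iron genes listed with it had higher regions in 17 of 27, or 63.0% (42.4 to 80.6), and no lower one. A promoter window was at hand for 23 genes of this list, and 95.7% of these windows were CpG-rich. KEAP1, the adaptor that targets NRF2 for degradation, held 84 knockdown and 14 control reads, 4.14-fold higher (2.33 to 7.89). NFE2L2, the gene of NRF2, held 41 and 9 reads over its start, 3.14-fold higher (1.50 to 7.35). GPX4, the lipid peroxide reductase, held 48 and 8 reads, 4.14-fold higher (1.94 to 10.1). The cystine transporter genes SLC7A11 and SLC3A2, NQO1 and GCLC were higher as well. The antioxidant response element core did not mark higher promoters in general, as given above.

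Among housekeeping groups the intervals of the shares overlapped. Cytosolic ribosomal protein genes had higher regions in 27 of 57, or 47.4% (34.0 to 61.0), with a median log2 ratio of 2.19 over 30 regions. Oxidative phosphorylation genes had them in 12 of 41, or 29.3% (16.1 to 45.5), an interval that includes the 24.3% of all genes, and in 7 of 41 counting only regions with an adjusted p under 0.05 in the authors' deposited table. Both lists were CpG-rich, in 96.7% and 92.3% of windows. RPS26 held 75 knockdown and 12 control reads, 4.31-fold higher (2.33 to 8.71), and RPS14 held 42 and 3, 9.66-fold higher (3.09 to 48.7). RPS29 had the only lower region among ribosomal genes, with 2 and 11 reads. COX5A, a cytochrome c oxidase subunit, held 31 and 4 reads, 5.35-fold higher (1.89 to 20.8), while ATP5F1A, the alpha subunit of ATP synthase, held 2 and 13 near its far end, 9.42-fold lower (2.13 to 86.0). Glycolysis and citric acid cycle genes had higher regions in 13 of 29, or 44.8% (26.4 to 64.3). OGDH, of the 2-oxoglutarate dehydrogenase complex, held 56 and 5 reads, 7.73-fold higher (3.12 to 24.7), CS, citrate synthase, held 55 and 13, 2.92-fold higher (1.57 to 5.82), and PKM, pyruvate kinase, held 50 and 11, 3.14-fold higher (1.61 to 6.68).

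**Figure D5:**
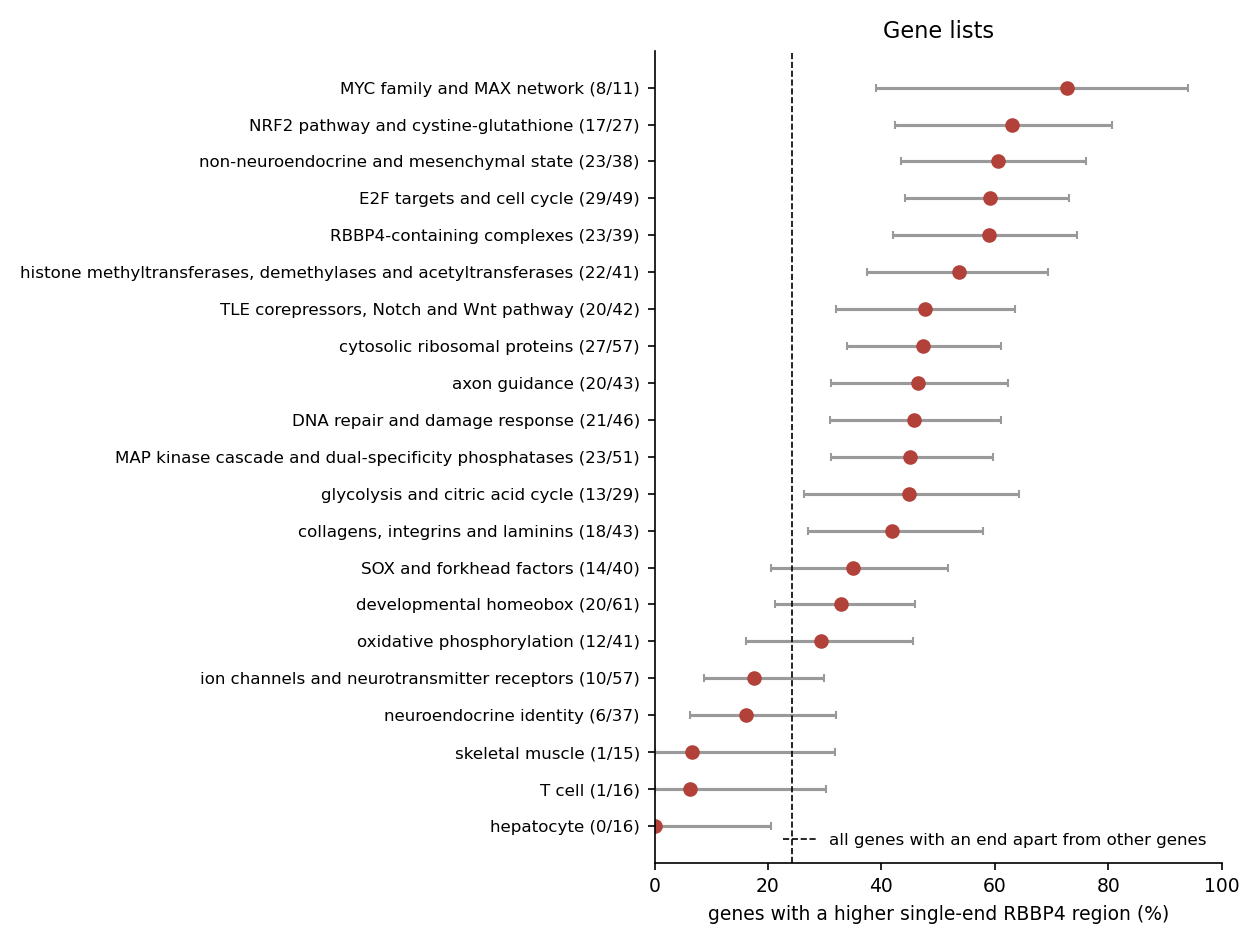
Percent of genes with an end apart from other genes that had a higher single-end RBBP4 region, for each list with at least 10 such genes, with the counts beside the names. Points are shares, bars exact 95% binomial intervals, and the dashed line marks the 24.3% of all such genes. Shares run from 8 of 11 in the MYC and MAX list to 0 of 16 hepatocyte genes.

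Neuroendocrine genes, which mark the lineage of NCI-H69, had few regions, and genes of the mesenchymal, non-neuroendocrine state had more. Neuroendocrine identity genes had higher regions in 6 of 37, or 16.2% (6.19 to 32.0), an interval that includes 24.3%. Of the 23 genes in this list with a promoter window, 65.2% had a CpG-rich one, beside 65.5% of all genes with a window. Among defining markers of the line, NCAM1 had a region, with 34 knockdown and 3 control reads, 7.82-fold higher (2.46 to 39.8), and NEUROD1, INSM1, CHGA, SYP and DLL3 had none. Occupancy is no measure of expression, so this does not check the identity of the cells. GRP, gastrin-releasing peptide, held 39 and 11 reads near its far end, 2.45-fold higher (1.23 to 5.29), and SNAP25, of the synaptic vesicle fusion machinery, held 35 and 8, 3.02-fold higher (1.38 to 7.53). The non-neuroendocrine list had higher regions in 23 of 38, or 60.5% (43.4 to 76.0), and 81.8% of its 33 windows were CpG-rich. HES1, the Notch target repressor, held 140 and 27 reads, 3.58-fold higher (2.36 to 5.62). VIM, vimentin, held 89 and 8, 7.67-fold higher (3.73 to 18.3), and NOTCH1 held 56 and 10, 3.86-fold higher (1.95 to 8.49). EGFR had the only lower region of the list, with 2 and 11 reads 2539 bp from its far end.

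The list of the MAP kinase cascade and its targets includes genes of the immediate early response, such as JUN and FOS. In this list 23 of 51 genes were higher, or 45.1% (31.1 to 59.7), with 39 of its 40 regions higher, where 87.7% of all single-end regions were. Besides JUN, FOS held 100 knockdown and 10 control reads near its start, 6.90-fold higher (3.60 to 14.8), and FOSL2 held 64 and 11, 4.01-fold higher (2.10 to 8.44). JUND, EGR1, DUSP1, SPRED2 and SPRY2, the last 3 being negative regulators of the cascade, had higher regions too. NRAS had the lower one, with 2 and 10 reads. Notch, Wnt and TLE corepressor genes were higher in 20 of 42, or 47.6% (32.0 to 63.6). TLE1, a Groucho-type corepressor, held 43 and 7 reads in 1 of its regions, 4.24-fold higher (1.89 to 11.2), and TLE3 held 39 and 2, 13.5-fold higher (3.48 to 115). TLE4 had a lower region near its far end, with 3 and 16 reads, 7.73-fold lower (2.21 to 41.4), and a higher one with 27 and 6. In the MYC and MAX network 8 of 11 genes were higher, or 72.7% (39.0 to 94.0), with all 13 regions higher, again beside 87.7%. MGA, a MAX partner and repressor, held 50 and 4 reads, 8.62-fold higher (3.17 to 32.9), and MXD3 held 62 and 8, 5.35-fold higher (2.55 to 12.9).

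Among the developmental, axon guidance, matrix and ion channel lists the shares ran from 17.5% to 46.5%. Homeobox genes were higher in 20 of 61, or 32.8% (21.3 to 46.0), and lower in 2, NKX2-2 and ZFHX3. SOX and forkhead factor genes were higher in 14 of 40, or 35.0% (20.6 to 51.7). Both intervals include 24.3%. MEIS1, a HOX cofactor, held 108 knockdown and 23 control reads at its start, 3.24-fold higher (2.05 to 5.33), and FOXF1 held 56 and 10, 3.86-fold higher (1.95 to 8.49). Axon guidance genes were higher in 20 of 43, or 46.5% (31.2 to 62.3), led by EFNA5, an ephrin ligand, with 68 and 10 reads and a log2 ratio of 2.09. Collagen, integrin and laminin genes were higher in 18 of 43, or 41.9% (27.0 to 57.9). LAMA2, the laminin alpha 2 chain, held 114 and 11 reads near its far end, 7.15-fold higher (3.85 to 14.7). Ion channel and receptor genes were higher in 10 of 57, or 17.5% (8.75 to 29.9). The deepest there was ITPR1, the inositol trisphosphate receptor, with 142 and 21 reads at its far end, 4.66-fold higher (2.94 to 7.77).

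Genes of unrelated cell types rarely had a region. Of 16 T cell genes 1 was higher, IL7R, with 69 knockdown and 5 control reads 722 bp from its start, 9.52-fold higher (3.89 to 30.2). Of 16 hepatocyte genes 0 were higher, which allows a share of up to 18.8% taken as 3 genes (exact upper limit 20.6%), and of 15 skeletal muscle genes 1 was, MB, myoglobin. Promoter windows were at hand for 10, 10 and 9 genes of these lists, and 10.0%, 0% and 11.1% of them were CpG-rich. Families taken by gene symbol ran the same way. Olfactory receptors were higher in 8 of 384, or 2.08% (0.904 to 4.06), and lower in 14, and 2.23% of their 314 windows were CpG-rich. Keratin-associated protein genes were higher in 1 of 87, interleukins in 3 of 43, and taste receptors in 0 of 24, which allows up to 12.5% taken as 3 genes (exact upper limit 14.2%). Zinc finger genes with ZNF symbols were higher in 130 of 483, or 26.9% (23.0 to 31.1), near the share of all genes although 78.5% of their windows were CpG-rich. Genes of ubiquitin-conjugating E2 enzymes were higher in 17 of 34 (32.4% to 67.6%), proteasome subunits in 18 of 41, or 43.9% (28.5 to 60.3), and HOX cluster genes in 12 of 34, or 35.3% (19.7 to 53.5).

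Most genes had 1 region, but 902 of 4808 had 2 or more, and in 690 of these every region was higher. Of all single-end regions 87.7% were higher, and whether regions of 1 gene went together beyond that share was not tested. MSX2, a homeobox repressor downstream of BMP signalling, had 6, which summed to 612 knockdown and 127 control reads, 3.32-fold higher. Of the 6, 5 were higher. SNX10 and SP8 also had 6 each, with sums of 224 and 81 reads and of 218 and 79 reads, and 3 of 6 called higher at each. Their summed folds of 1.91 and 1.90 were among the smallest of genes with 4 or more regions. Sets of 5 regions lay at DLX2, HOXA13, HOXC11, IRF2BP2, MAB21L1, SCGN and UBTF, of which DLX2, HOXA13 and HOXC11 are homeobox genes. IRF2BP2, a corepressor, summed to 196 and 31 reads, 4.36-fold higher, and all of its 5 were higher. Among genes with 4 regions, HES1 summed to 314 and 65 reads, 3.33-fold higher, and ID1, an inhibitor of basic helix-loop-helix factors, to 185 and 38, 3.36-fold higher. Neighbouring regions of a gene share their place and are not independent.

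Both directions met at 98 genes. In 193 genes with a region at the start and another at the far end, both were higher in 122, and the start was higher with a lower far end in 53. The opposite, a lower start with a higher far end, was seen in 5. Over all regions at starts 92.6% were higher and 3.20% lower, and over all at far ends 62.5% and 32.5%. Whether pairs at 1 gene depart from those shares was not tested. FOXO1, a forkhead factor, held 32 knockdown and 7 control reads near its start, 3.15-fold higher (1.37 to 8.46), and 0 and 11 near its far end, at least 5.32-fold lower (exact limit 3.64). VCAM1, a cell adhesion molecule, held 76 and 7 reads near its start, 7.49-fold higher (3.46 to 19.3), and 3 and 14 near its far end, 6.77-fold lower (1.89 to 36.7). TTC39C held 53 and 7 reads in the deeper of its start regions, 5.22-fold higher (2.37 to 13.6), and 2 and 15 near its far end, 10.9-fold lower (2.53 to 98.0). MB held 35 and 3 reads at its start, 8.05-fold higher (2.54 to 40.9), and 3 and 14 near its far end, 6.77-fold lower. SCGN, the calcium-binding protein secretagogin, was mixed at one end. Around its start it held 3 lower regions, with 1 and 9, 2 and 11, and 3 and 12 reads, and 1 higher region with 14 and 0 reads, at least 3.22-fold higher (exact limit 2.29).

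Overlap with P300 was rare in both directions. Of 5221 higher regions 53 overlapped a listed P300 region by at least 1 bp, or 1.02% (0.761 to 1.33), beside 0.886% of other higher RBBP4 regions. Of 476 lower regions 6 did, or 1.26% (0.464 to 2.72), beside 0.810%. At the 53, P300 was higher in 29 and lower in 17, and at the 6 it was lower in all. At the RBBP4 regions elsewhere that overlapped a P300 region, P300 was higher in 65 and lower in 84 of 156 where RBBP4 was higher, and higher in 32 and lower in 52 of 85 where RBBP4 was lower. The balance at single gene ends rests on few regions. P300 regions came from another antibody with its own pair of libraries, and that table too listed only selected regions. At COL1A1, the collagen I alpha 1 chain, RBBP4 held 50 knockdown and 7 control reads and P300 15 and 3, so both were higher. At ECPAS, a proteasome adaptor, RBBP4 held 47 and 8 and P300 28 and 10. CPO and ARMH3 were higher for both as well. At SUV39H2 the directions parted, with 41 and 11 RBBP4 reads and 3 and 14 P300 reads. At ADAR, the RNA-editing deaminase, named after its values were seen, RBBP4 held 45 and 5 reads and P300 7 and 16.

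Higher regions were spread over all chromosomes measured. The share of genes with an end apart that had a higher region ran from 9.65% on the X chromosome and 16.3% on chromosome 21 to 29.9% on chromosome 7 and 32.0% on chromosome 14. The X chromosome and chromosome 21 also had the lowest read densities of higher regions in both libraries. The median was 33.8 knockdown and 3.55 control reads per kb on the X chromosome, and 34.5 and 4.11 on chromosome 21, where the median log2 ratios of all single-end regions were 2.24 and 2.23. It was 46.0 and 7.65 on chromosome 7 and 44.4 and 7.75 on chromosome 9, where those ratios were 1.68 and 1.65. Chromosome 9, with the denser control reads of this pair, had a share of 28.4%. What sets the read density of a chromosome was not tested. The input libraries were not used here.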

How the data were processed

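Chromatin immunoprecipitation libraries of NCI-H69 cells, 1 per arm and antibody, were read as paired 150 bp ends, per the labels. The submitters' processing notes name ChIPseeker 1.28.3, DiffBind 3.4.11, MACS2 2.2.7.1, Bowtie2 2.4.5, Trim Galore 0.6.7 and FastQC, and the build GRCh38. The role of each tool is not given in the sources used here. For each antibody the authors deposited RPKM per region and library, per the file headers. The log2 fold change, mean log2 CPM, p-value and adjusted p-value of each region are the authors' deposited values too. RPKM times width gave whole reads within 0.01 for 98.3% of RBBP4 regions. For 596 others a width was solved that matched the deposited log2 CPM, within 0.0095. The scaling total was taken as the reads in the 95329 regions tested, which was not checked. The authors' log2 values were scaled to whole libraries, and log2 ratios on the RPKM scale are shifted by -0.58 from them.

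The measure was log2 of knockdown over control RPKM after adding 1 to each, so ratios of regions with low values come out too small. Gene ends were those of 20033 RefSeq protein-coding genes of GRCh38.p14, with strand for 15842 from the promoter table. Intervals are exact (Clopper-Pearson). No test of conditions was possible with 1 library per arm. Of 901 entries in 22 gene lists, 899 matched a symbol. The regions and lists were chosen with earlier results of these data known. Named regions followed a rule: the 6 deepest, the 6 with intervals farthest from 1 and the 4 widest per direction, up to 3 genes per list, genes of both directions and P300 overlaps. Promoters that the rule picked but that lay over 1000 bp from the region (JUN, ANKRD62, ATG4C) were not printed. Genes with 4 or more regions, symbol families, further list genes given by name or by reads only, MMRN1, OR6C74, CNPY4, EP300 and ADAR were added after their values were seen. Read recovery was tested on simulated reads. Python 3.11.15, numpy 2.4.6, pandas 2.3.3, scipy 1.17.1 and matplotlib 3.10.9 were used. A few regions that the rule picked are not reported here.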

Additional observations from a re-analysis of the deposited data

How the results depend on the processing

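With 1 library per arm, no replicate could be left out. No paired analysis was possible because each arm had 1 library and no replicate numbers. The median log2 ratio over single-end regions, 1.85, was 1.95 with a pseudocount of 0.1 RPKM, 1.49 with 5 RPKM, 1.78 at 20 or more reads, 2.50 with the authors' deposited log2 fold change, 2.06 at an adjusted p under 0.05 in the authors' deposited table, and 1.92 within 1000 bp of an end. The share higher, 87.7%, was 82.0% with 5 RPKM, 90.8% at 20 or more reads, 92.0% with the authors' log2 fold change, 95.1% by adjusted p and 92.5% within 1000 bp. At 20 or more reads the counts were 3151 higher and 59 lower regions and 2738 genes with a higher region. Lower regions numbered 148 by adjusted p and 170 within 1000 bp. A threshold of 2 left 2536 higher regions at 2328 genes. Shares at the start were 90.4% of higher and 28.0% of lower regions by adjusted p, and 93.4% and 20.6% within 1000 bp, and 19.1% of lower regions at 20 or more reads. P300 regions lay within 1000 bp of 127, beside 61 that overlapped. CpG observed over expected was 0.874 where the region overlapped the window. The cause of these shifts was not tested, beyond fewer regions entering. Of the gene lists, oxidative phosphorylation went from 12 to 7 genes by adjusted p and hepatocyte from 0 to 1 within 1000 bp. None of these values reversed direction. Whole-library scaling moved 13 of 167 named folds outside their intervals.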
